A study of Mus musculus with 6 samples.

Results

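The genes described here are 38 genes of the autophagy machinery, chosen by name from general knowledge of the pathway and found in the count table by their Ensembl identifiers, out of 55414 genes in the table. They include Atg16l1 and Lrrk2, whose human counterparts lie at loci linked to the risk of Crohn disease. They were followed in Paneth cells (PCs) sorted from the small intestine of C57BL/6J mice 15 h after an injection of phosphate-buffered saline (PBS, the control) or of tumour necrosis factor (TNF), an inflammatory cytokine. All mice of both groups were labelled IFNAR1 KO, that is, they lacked part of the receptor for type I interferons, and no group had it. Each group held 3 libraries of total RNA, each from a different mouse, and the comparison asked how the PC transcriptome differed after TNF. The sources used here give no dose, route, sex or age.

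Autophagy encloses a portion of the cytoplasm in a double membrane, the autophagosome, and delivers it to the lysosome for breakdown. The ULK1 kinase complex starts the process, a class III phosphatidylinositol 3-kinase marks the membrane, ATG9 and ATG2 supply lipid, and a conjugation system with ATG7, ATG5, ATG12 and ATG16L1 couples proteins of the ATG8 family (LC3 and GABARAP) to the growing membrane. Cargo receptors such as SQSTM1 (p62) link ubiquitin-tagged cargo to ATG8 proteins and are themselves degraded with it. PCs fill their cytoplasm with granules of lysozyme and antimicrobial peptides, and mice with impaired Atg16l1, Atg5 or Atg7 are known for abnormal PC granules.

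TNF replicate 1 stood apart from the other TNF libraries over all genes. A principal component analysis of all tested genes gave a first component with 48.9% of the variance, on which this library lay with the PBS libraries. The cause was not tested, and the library was kept as labelled. Each result below is also given without it where its value decided the result. Total counts were 12747484 to 17039511 per library with 16483 to 18449 genes detected, and levels are given as CPM, counts scaled to a common library total. Where a library had no count of a gene, its level may still be as high as 0.147 to 0.255 CPM, which is 3 counts and covers counting error only. The summed level of 10 PC markers was 341474 to 419855 CPM in PBS and 252419 to 552116 CPM in TNF. The highest of them were Lyz1 and Defa24, with means of 171735 and 130014 CPM in PBS. By log2 fold change 5 of the 10 were higher and 5 lower. Without TNF replicate 1, Nupr1 (2.11) and Pla2g2a (1.41) were higher with an edgeR adjusted p under 0.05. Clps (-2.13) and Habp2 (-1.25) were lower at that threshold. Each pair was 20% of the markers, against 9.1% and 5.4% of all genes. For 11 enterocyte markers the sum was 338 to 384 CPM in PBS, against 102 to 290.1 CPM after TNF. The 8 stem cell markers summed to 2598 to 3208 CPM in PBS but 4751, 921 and 807 CPM in TNF replicates 1 to 3. Of this sum, Olfm4 held 2374, 2224 and 1925 CPM in PBS replicates 1 to 3. In the TNF libraries it held 3887, 233 and 272 CPM. By log2 fold change 7 of the 8 were lower and Slc12a2 higher (0.12), and the groups overlapped for Lgr5. The sum of 7 goblet cell markers spanned 12307 to 13509 CPM (PBS) and 7864 to 15751 CPM (TNF). Of this sum, Spink4 held 8697, 7531 and 8139 CPM in PBS replicates 1 to 3. Without TNF replicate 1, 4 of the 7 (Fcgbp, Tff3, Clca1 and Zg16) were lower with an edgeR adjusted p under 0.05. That was 57.1%, against 5.4% of all genes, and 0 were higher at that threshold. The sum of 8 tuft cell markers spanned 446 to 1590 CPM (PBS) and 541 to 1087 CPM (TNF). The 10 immune cell markers summed to 22.2 to 54.7 CPM in PBS and 35.6 to 45.3 CPM in TNF, with Cd8a at 0 in all libraries, and 5 of 6 endothelial or red blood cell markers were at 0. The part that these differences between libraries have in the results below was not tested.

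Levels of different genes were compared as CPM per kb of the canonical transcript, averaged over the 6 libraries, and the order differed in part between the groups. The highest level belonged to Map1lc3b, which encodes the ATG8 protein LC3B, at 102 CPM per kb. It was followed by Gabarap at 81.7, Sqstm1 at 70.02, Tax1bp1 at 45.5, Nbr1 at 36.3 and Gabarapl1 at 35.9 CPM per kb. Genes of the ATG8 family and cargo receptors, the parts of the machinery that are consumed together with the cargo, took the first 7 places in this mean. Gabarapl2 was in place 7 at 20.1 CPM per kb. The other genes of these roles came lower. Map1lc3a was in place 10 at 13.6, Optn in place 18 at 6.94 and Calcoco1 in place 27 at 3.76 CPM per kb. Nbr1 lay above Gabarapl1 in PBS (42.9 ± 6.57 and 18.4 ± 3.44 CPM per kb) but below it in the TNF mean (29.6 ± 4.74 and 53.4 ± 29.5 CPM per kb; SD, n = 3 each). In PBS replicate 1 Gabarapl2 lay below Atg5, Wipi1, Atg3 and Atg7. Over all 6 libraries the ranges of Map1lc3b (75.7 to 145 CPM per kb) and Gabarap (61.1 to 96.4 CPM per kb) overlapped. So did those of Tax1bp1 and Nbr1, and both pairs also overlapped within PBS. Within TNF, Map1lc3b (105, 108 and 145 CPM per kb) lay above Gabarap (79.8, 96.4 and 94.2 CPM per kb). There Tax1bp1 (37.1, 55.7 and 56.6 CPM per kb) likewise lay above Nbr1 (35.1, 26.4 and 27.4 CPM per kb). Differences between these neighbours were not tested. Among the genes of the conjugation system, Atg5 was at 15.5, Atg3 at 11.1, Atg7 at 7.76, Atg12 at 7.28, Atg16l1 at 5.72 and Atg10 at 2.32 CPM per kb. The kinase gene Ulk1, at 3.65 CPM per kb, was among the lower members. The second copies Atg16l2 and Atg9b were at the bottom of the tested genes, at 0.298 and 0.268 CPM per kb.

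**Figure D1:**
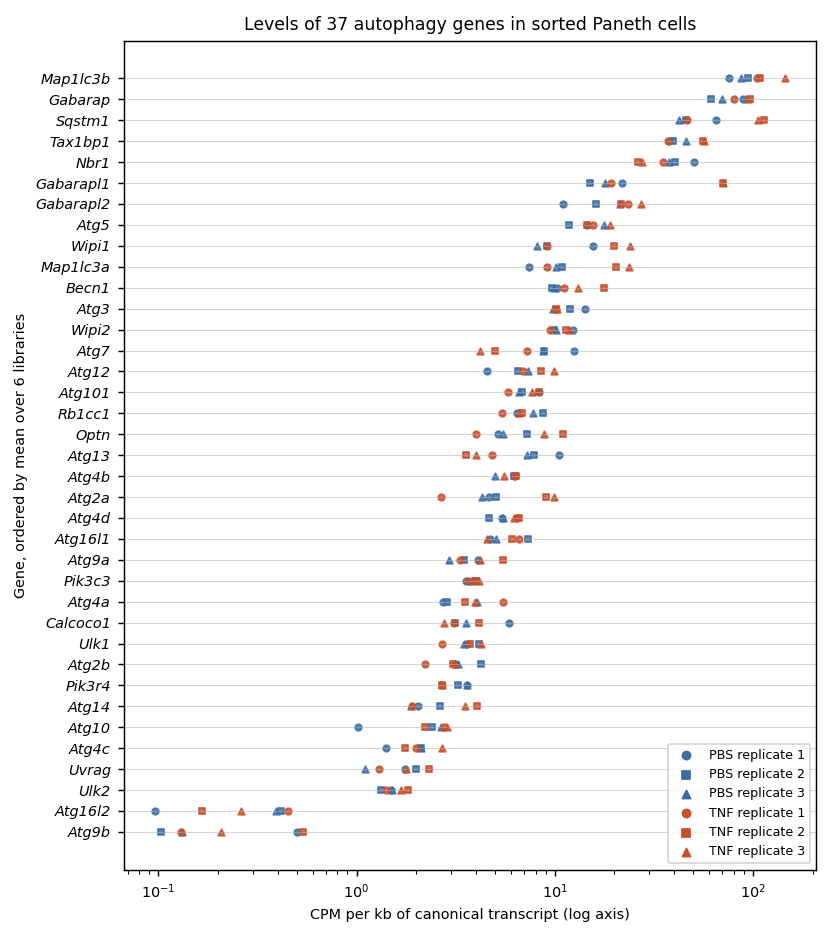
The plot shows the level of each of the 37 tested genes in each library, as CPM per kb of canonical transcript on a log axis, ordered by the mean over 6 libraries; blue symbols are PBS and red symbols TNF, with circle, square and triangle for replicates 1, 2 and 3. Map1lc3b leads at 102 CPM per kb and Atg9b comes last at 0.268, and the red squares and triangles of Gabarapl1 and Sqstm1 lie to the right of all other symbols of those genes.

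Lrrk2 (ENSMUSG00000036273, chromosome 15, 91557083 to 91700604), which encodes a large kinase that acts at lysosomes and secretory vesicles, was the single gene of the 38 too low to test. It had 5 counts in PBS replicate 1, or 0.361 CPM, and 0 counts in the other 5 libraries. Its transcript was thus not detectable at this depth in either group but for those counts.

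In the comparison of TNF with PBS over all 6 libraries, 0 of the 37 tested autophagy genes passed an edgeR adjusted p under 0.05 (5%), against 0.0% of all 13026 genes tested. DESeq2 passed 2, Atg13 and Gabarapl1, against 1.83% of all genes, and limma-voom passed 0. With no filter on low counts, edgeR passed 3, Atg13, Atg7 and Gabarapl1, against 2.94% of all genes. At an unadjusted p under 0.05 there were 5 of the 37 (13.5%), near the 12.3% of all genes, of which 2, Gabarapl1 and Map1lc3a, were higher in TNF (against 8.25% of all genes) and 3, Atg13, Atg7 and Nbr1, were lower (against 4.0%). The groups did not overlap for 9 of the 37 genes (24.3%), against 16.9% of all genes. In Becn1, Atg4d, Map1lc3b and Gabarapl2 all TNF libraries lay above all PBS libraries (10.8%, against 9.07% of all genes). In Atg13, Pik3r4, Atg2b, Atg7 and Nbr1 they lay below (13.5%, against 7.82%). The log2 fold change was above 0 for 27 of the 37 genes (73.0%, against 50.0% of all genes), and its median was 0.20, against -0.00 over all genes tested.

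Without TNF replicate 1, 9 of the 37 genes passed 5% (24.3%, against 14.5% of all genes in the same fit). Becn1, Atg2a, Wipi1, Map1lc3a, Gabarapl1, Sqstm1 and Optn rose (18.9%, against 9.1%), and Atg13 and Atg7 fell (5.41%, against 5.4%). Higher calls among these genes were thus more frequent than among all genes, and lower calls equally frequent, with no test of either difference. The median log2 fold change was 0.29 in this fit. When any other library was left out instead, 0 of the 37 genes passed 5%. Relative to the mean of the PBS libraries, the median log2 level of the 37 genes was -0.11, 0.20 and 0.26 in TNF replicates 1 to 3, and it was between -0.08 and 0.04 in the PBS libraries. The first TNF library thus lay below, and the others above, the range of the PBS libraries. RNA amounts from pooled cells do not tell fewer cells expressing a gene from less RNA of it per cell, here and for every gene below.

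**Figure D2:**
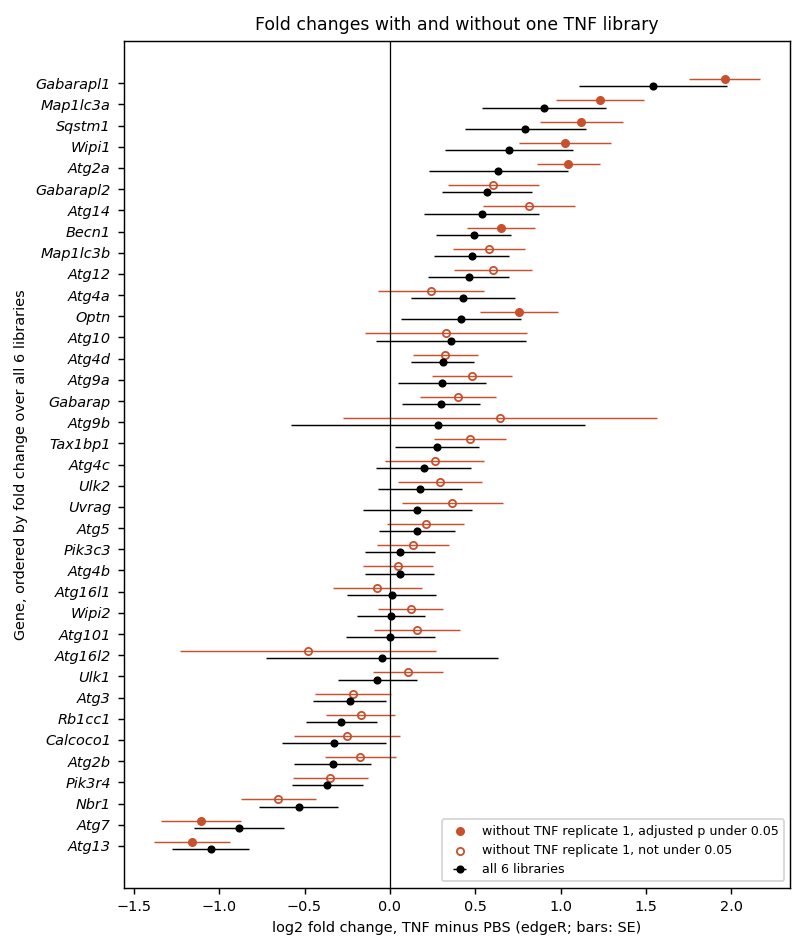
Points give the edgeR log2 fold change (TNF minus PBS) of each tested gene, with the SE as bars, over all 6 libraries in black and without TNF replicate 1 in red, where filled points mark an adjusted p under 0.05. Gabarapl1 is at the top with 1.54 and 1.96, Atg13 is at the bottom with -1.05 and -1.16, and 9 red points are filled.

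The promoters of 5 genes are shown here, chosen after their values were seen among the genes with a promoter entry. By log2 fold change, Gabarapl1, Sqstm1 and Wipi1 were on the higher side and Atg7 and Atg13 on the lower side. None of these genes passed 5% with edgeR and its low-count filter over all 6 libraries, and all 5 did without TNF replicate 1. Map1lc3a, whose fold change was above those of Sqstm1 and Wipi1, has no entry. Each is the 250 bases before a transcription start given by RefSeq for build GRCm38.p6, an earlier build than the mm39 of the counts. The windows are chr6:129532942-129533191 on the plus strand for Gabarapl1, chr11:50210821-50211070 on the minus strand for Sqstm1, chr11:109611390-109611639 on the minus strand for Wipi1, chr6:114670846-114671095 on the plus strand for Atg7 and chr2:91710593-91710842 on the minus strand for Atg13. The Atg7 window lies well past the mm39 start of the gene (114620044). For Gabarapl1, on the same chromosome and strand, the mm39 start (129509725) is much closer to the window. The Atg7 window thus appears to precede a start inside the gene, not the first one. Capitals mark matches to any of 3 motifs, each searched on both strands, where no match of a motif shown here overlaps that of another. The motifs are the gamma-activated site TTCNNNGAA, the E-box CACGTG and a loose kappa-B pattern (GGGA and CC with any 4 bases between them). A match to the loose pattern need not be a full kappa-B site.
Gabarapl1: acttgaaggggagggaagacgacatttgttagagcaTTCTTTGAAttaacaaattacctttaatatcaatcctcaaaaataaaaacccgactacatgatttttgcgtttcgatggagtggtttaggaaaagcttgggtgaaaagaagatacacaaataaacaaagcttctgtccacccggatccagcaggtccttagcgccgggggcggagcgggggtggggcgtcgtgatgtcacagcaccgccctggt
Sqstm1: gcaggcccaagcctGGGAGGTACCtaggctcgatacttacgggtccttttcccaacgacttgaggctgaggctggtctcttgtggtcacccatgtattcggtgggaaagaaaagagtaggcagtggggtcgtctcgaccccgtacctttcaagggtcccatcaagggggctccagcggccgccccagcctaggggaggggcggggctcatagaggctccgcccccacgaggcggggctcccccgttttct
Wipi1: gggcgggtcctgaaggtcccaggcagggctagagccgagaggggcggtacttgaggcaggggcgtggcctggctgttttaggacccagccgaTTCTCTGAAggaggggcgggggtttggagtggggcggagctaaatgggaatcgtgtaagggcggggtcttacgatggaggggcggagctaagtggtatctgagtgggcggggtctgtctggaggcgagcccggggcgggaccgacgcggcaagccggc
Atg7: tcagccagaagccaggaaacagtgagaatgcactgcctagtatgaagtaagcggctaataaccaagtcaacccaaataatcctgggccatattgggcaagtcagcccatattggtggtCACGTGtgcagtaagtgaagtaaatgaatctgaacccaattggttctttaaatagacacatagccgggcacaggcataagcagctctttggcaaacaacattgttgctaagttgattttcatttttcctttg
Atg13: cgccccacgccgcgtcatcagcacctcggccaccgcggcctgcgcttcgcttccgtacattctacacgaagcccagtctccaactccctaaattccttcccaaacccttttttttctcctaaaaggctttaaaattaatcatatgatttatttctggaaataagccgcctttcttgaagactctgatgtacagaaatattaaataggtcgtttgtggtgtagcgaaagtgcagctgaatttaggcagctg

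Gabarapl1 and Wipi1 each held a gamma-activated site, written TTCTTTGAA and TTCTCTGAA, as did Gabarap and Nbr1, which makes 4 of the 32 autophagy genes with a promoter entry (12.5%), against 7.02% of all 32851 promoters. The Atg7 window, which appears to lie inside the gene, held an E-box, as did those of Atg3 and Atg5 (9.38%, against 6.02% of all). Sqstm1 held a match to the loose kappa-B pattern, GGGAGGTACC, and Atg3, Atg16l2 and Tax1bp1 held matches too (12.5%, against 17.6% of all). None of the 3 motifs was found in the Atg13 window. The shares of the autophagy genes count a gene if any of its promoters matched (32 genes with 36 promoters). The shares of all count single promoters, so the units differ. The motifs were chosen with the values known, such matches are frequent among promoters, and genes that lay higher (Gabarapl1, Wipi1) and lower (Nbr1) in TNF share the same motif.

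The initiation complex was described first. Of its 5 genes, 2 were higher and 3 lower in TNF, with a median log2 fold change of -0.07. Atg13 (ENSMUSG00000027244, chromosome 2, 91502602 to 91541186) encodes the adaptor that joins ULK1 to the rest of the complex, and it differed most. Its level was 65.1, 48.3 and 44.8 CPM in the PBS libraries, here and below in the order of replicates 1 to 3, and 29.9, 21.9 and 24.7 CPM in the TNF libraries. All TNF libraries, the first included, thus lay below all PBS libraries. The mean was 52.7 ± 10.8 CPM in the PBS group and 25.5 ± 4.06 CPM in the TNF group (SD, n = 3 each), with a log2 fold change of -1.05 (SE 0.23, adjusted p 0.270 with edgeR). Atg13 fell in the fit without TNF replicate 1 (-1.16, adjusted p 0.00596 with edgeR, against 0.00310 to 0.897 over 13 alternatives). Of the 75-base windows of its transcript, 54.7% also occur in other genes, above all in Arhgap1, which overlaps it on the opposite strand, and whether the counting used strand is not known. Arhgap1 itself had 37.7 to 69.8 CPM and a log2 fold change of -0.11 (SE 0.25).

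Ulk1 (ENSMUSG00000029512, chromosome 5, 110931496 to 110957995), the kinase of the complex, had 22.0, 25.3 and 21.1 CPM in the PBS libraries and 16.5, 22.6 and 25.8 CPM in the TNF libraries. The groups overlapped, with the lowest and the highest value both in TNF. Its log2 fold change was -0.07 (SE 0.23), and it was 0.11 without TNF replicate 1. Ulk2, the paralogous kinase, was at 9.61 ± 0.640 CPM in the PBS group and 10.8 ± 1.39 CPM in the TNF group. Rb1cc1, the scaffold FIP200, was at 58.5 ± 8.92 and 48.0 ± 5.60 CPM, and Atg101, which stabilises ATG13, at 9.97 ± 1.24 and 9.98 ± 1.78 CPM. None of these 4 genes differed beyond the spread of the libraries, and their log2 fold changes were between -0.28 and 0.18. Within the complex, Atg13 thus had the largest difference, and whether it differed from that of its partners was not tested.

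The nucleation genes encode the class III phosphatidylinositol 3-kinase and its partners, and 4 of 5 were higher in TNF (median log2 fold change 0.16). Becn1 (ENSMUSG00000035086, chromosome 11, 101176769 to 101193122) encodes Beclin 1, the regulatory core of the kinase complex. Its level was 45.0, 42.2 and 43.1 CPM in the PBS libraries and 48.7, 77.4 and 56.9 CPM in the TNF libraries. The PBS libraries lay within 3 CPM of each other and all TNF libraries lay above them, the first by the least. The log2 fold change was 0.49 (SE 0.22, adjusted p 0.413 with edgeR), and Becn1 rose without TNF replicate 1 (0.65, adjusted p 0.0491 with edgeR, against 0.0491 to 0.919 over 13 alternatives). Of its 75-base windows, 45.7% are shared, with Cntd1 on the opposite strand, a gene at 0 to 0.595 CPM here.

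Pik3r4 (ENSMUSG00000032571, chromosome 9, 105520160 to 105564856), the pseudokinase VPS15 that anchors the catalytic subunit, lay the other way. It had 17.7, 15.9 and 17.8 CPM in the PBS libraries and 13.3, 13.3 and 13.2 CPM in the TNF libraries. The TNF libraries were nearly equal and all lay below the PBS libraries, but the log2 fold change of -0.37 (SE 0.21) had an adjusted p of 0.501 with edgeR. Pik3c3, the catalytic subunit VPS34, was at 16.9 ± 0.922 CPM in the PBS group and 17.6 ± 1.23 CPM in the TNF group. The partners that define its separate complexes were Atg14, at 7.54 ± 1.37 and 10.9 ± 3.90 CPM, and Uvrag, at 10.2 ± 2.91 and 11.4 ± 3.25 CPM. Atg14 had 14.0 and 12.2 CPM in TNF replicates 2 and 3, above all PBS libraries, and 6.54 CPM in TNF replicate 1, but it did not pass 5% without that library either (log2 fold change 0.82).

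Among the 6 genes of membrane supply, 5 were higher in TNF (median log2 fold change 0.29), and 2 of them rested on TNF replicates 2 and 3. Atg2a (ENSMUSG00000024773, chromosome 19, 6291698 to 6312365) encodes a lipid transfer protein that feeds the growing membrane. It had 29.5, 32.0 and 27.4 CPM in the PBS libraries and 17.0, 57.5 and 63.4 CPM in the TNF libraries. The first TNF library was thus the lowest of all and the other TNF libraries the highest. Its log2 fold change was 0.63 (SE 0.41, adjusted p 0.555 with edgeR) over all libraries, and it rose without TNF replicate 1 (1.05, adjusted p 0.00362 with edgeR, against 0.00362 to 0.961 over 13 alternatives).

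Atg2b (ENSMUSG00000041341, chromosome 12, 105579795 to 105651569), the paralogue with the same activity, had 32.2, 43.5 and 33.1 CPM in the PBS libraries and 22.7, 31.4 and 32.1 CPM in the TNF libraries. All TNF libraries lay below the PBS libraries, the highest of them by a narrow margin, and the log2 fold change was -0.34 (SE 0.23, adjusted p 0.574 with edgeR). The count ratio of Atg2a to Atg2b was 0.917, 0.736 and 0.827 in PBS and 0.749, 1.83 and 1.97 in TNF. Atg2b was the more counted of the pair in all PBS libraries and in TNF replicate 1, and Atg2a in TNF replicates 2 and 3. This ratio and those below, other than the shares of the ATG8 family, were chosen after their values were seen and carry no test.

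Wipi1 (ENSMUSG00000041895, chromosome 11, 109464156 to 109502793) encodes a protein that reads the lipid mark made by the kinase. It had 32.1, 18.8 and 16.8 CPM in the PBS libraries and 19.0, 41.4 and 49.4 CPM in the TNF libraries. TNF replicate 1 lay within the PBS range and the other TNF libraries above it. Its log2 fold change was 0.70 (SE 0.37, adjusted p 0.477 with edgeR), and Wipi1 rose without TNF replicate 1 (1.03, adjusted p 0.0262 with edgeR, against 0.0262 to 0.933 over 13 alternatives). Wipi2, which recruits ATG16L1 to the same mark, was at 55.4 ± 6.87 CPM in the PBS group and 55.8 ± 6.54 CPM in the TNF group. The count ratio of Wipi1 to Wipi2 was between 0.323 and 0.507 in PBS and was 0.392, 0.711 and 0.813 in TNF. Atg9a, the scramblase that travels in vesicles, was at 15.9 ± 2.70 and 19.6 ± 4.91 CPM, and Atg9b at 0.954 ± 0.862 and 1.14 ± 0.848 CPM. Of the windows of Atg9a, 57.1% are shared with other genes.

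In the conjugation system, 4 of 7 genes were higher and 3 lower, with a median log2 fold change of 0.01. Atg7 (ENSMUSG00000030314, chromosome 6, 114620044 to 114837576) encodes the E1-like enzyme that activates both ATG12 and the ATG8 proteins. Its level was 47.2, 33.3 and 33.0 CPM in the PBS libraries and 27.1, 18.7 and 15.9 CPM in the TNF libraries. All TNF libraries lay below all PBS libraries, and TNF replicate 1 lay closest to them. The mean was 37.8 ± 8.14 CPM in the PBS group and 20.6 ± 5.85 CPM in the TNF group (SD, n = 3 each), with a log2 fold change of -0.88 (SE 0.26, adjusted p 0.288 with edgeR). Atg7 fell without TNF replicate 1 (-1.11, adjusted p 0.00931 with edgeR, against 0.00931 to 0.897 over 13 alternatives), and 0% of its 75-base windows are shared with another gene.

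The genes that follow Atg7 in the reaction had smaller fold changes, and whether these differed from that of Atg7 was not tested. Atg5 (ENSMUSG00000038160, chromosome 10, 44142076 to 44240308), the acceptor of ATG12, had 34.6, 28.2 and 42.1 CPM in the PBS libraries and 37.1, 34.5 and 45.4 CPM in the TNF libraries. The groups overlapped, and the log2 fold change was 0.16 (SE 0.22). Atg12 was at 32.3 ± 7.40 CPM in the PBS group and 44.5 ± 7.91 CPM in the TNF group (log2 fold change 0.46, SE 0.24). The E2-like enzymes were Atg3, at 26.2 ± 4.89 and 22.3 ± 0.0487 CPM (log2 fold change -0.24, SE 0.21, and below 0 in all 13 alternatives), and Atg10, at 3.73 ± 1.63 and 4.80 ± 0.642 CPM. Neither passed 5% in any of the 13 alternatives.

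Atg16l1 (ENSMUSG00000026289, chromosome 1, 87683592 to 87720150) encodes the protein that places the conjugation complex on the membrane, and it is the Crohn-linked gene of this system. Its level was 14.9, 23.2 and 15.9 CPM in the PBS libraries and 20.7, 19.2 and 14.4 CPM in the TNF libraries. The libraries of both groups were intermixed. The mean was 18.0 ± 4.57 CPM in the PBS group and 18.1 ± 3.30 CPM in the TNF group (SD, n = 3 each), with a log2 fold change of 0.01 (SE 0.26, adjusted p 0.989 with edgeR, and 0.875 to 0.997 over 13 alternatives). Its sign turned under several alternatives, with values between -0.11 and 0.24. The second copy Atg16l2 was at 2.03 ± 1.20 and 1.99 ± 0.985 CPM.

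All 4 ATG4 proteases, which trim ATG8 proteins before conjugation and free them from the membrane afterwards, were higher in TNF, with a median log2 fold change of 0.25. Atg4d (ENSMUSG00000002820, chromosome 9, 21176496 to 21189068) had 32.8, 28.2 and 33.0 CPM in the PBS libraries and 39.0, 39.9 and 37.5 CPM in the TNF libraries. The groups did not overlap, and here TNF replicate 1 lay with the other TNF libraries. The difference was small (log2 fold change 0.31, SE 0.18, adjusted p 0.523 with edgeR), and 27.0% of the windows are shared, mostly with Kri1 on the opposite strand. Atg4b, the main protease for LC3, was at 25.1 ± 3.04 CPM in the PBS group and 26.1 ± 2.05 CPM in the TNF group, Atg4c at 11.2 ± 2.42 and 12.8 ± 2.87 CPM, and Atg4a at 7.15 ± 1.64 and 9.64 ± 2.31 CPM. None of the 4 passed 5% in any of the 13 alternatives. Of the windows of Atg4a and Atg4c, 51.4% and 32.3% are shared with other genes.

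**Figure D3:**
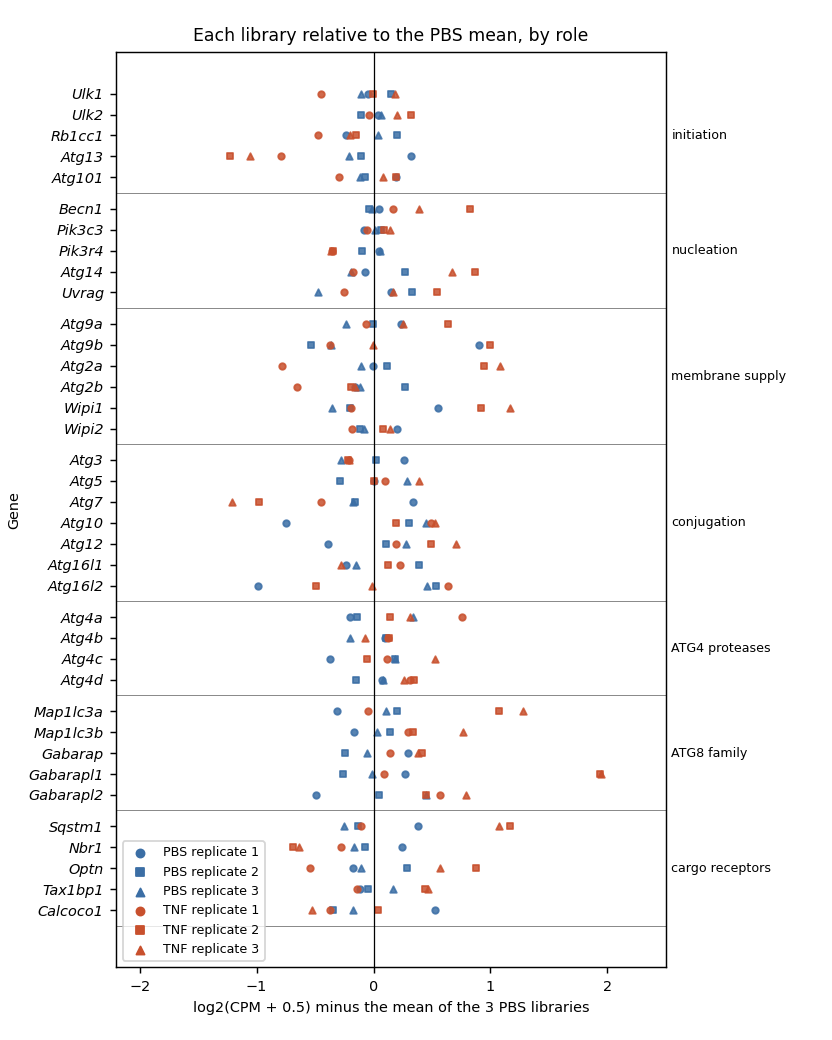
Each symbol is a library, given as log2(CPM + 0.5) minus the mean of the 3 PBS libraries, for the 37 tested genes grouped by role (circle, square and triangle for replicates 1, 2 and 3; PBS blue, TNF red). The TNF circles of Atg2a, Wipi1, Gabarapl1, Sqstm1 and Optn lie apart from the TNF squares and triangles, whereas the 3 TNF symbols of Atg13, Atg4d and Pik3r4 lie on the same side.

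All 5 ATG8 genes were higher in TNF, with the highest median of the roles, 0.57. Gabarapl1 (ENSMUSG00000030161, chromosome 6, 129509725 to 129520544) had the largest log2 fold change of the 37 genes. Its level was 40.0, 27.5 and 32.8 CPM in the PBS libraries and 35.1, 128 and 129 CPM in the TNF libraries. TNF replicate 1 lay inside the PBS range, and TNF replicates 2 and 3 lay at more than 3 times its highest value. The mean was 33.4 ± 6.26 CPM in the PBS group and 97.2 ± 53.8 CPM in the TNF group (SD, n = 3 each), with a log2 fold change of 1.54 (SE 0.43, adjusted p 0.278 with edgeR). Gabarapl1 rose without TNF replicate 1 (1.96, adjusted p 0.000172 with edgeR, against 6.88e-06 to 0.897 over 13 alternatives). Of its windows, 19.4% are shared with 1700101I11Rik, which was at 0 to 1.69 CPM. The fold changes of the other GABARAP genes were smaller. Gabarap was at 129 ± 25.3 CPM in the PBS group and 159 ± 15.9 CPM in the TNF group, with a log2 fold change of 0.30 (SE 0.23).

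Gabarapl2 (ENSMUSG00000031950, chromosome 8, 112667322 to 112682011), which encodes GATE-16, had 18.6, 27.4 and 36.2 CPM in the PBS libraries and 39.4, 36.3 and 46.1 CPM in the TNF libraries. The groups did not overlap, though TNF replicate 2 was only just above PBS replicate 3. The log2 fold change was 0.57 (SE 0.26, adjusted p 0.427 with edgeR). Map1lc3b (ENSMUSG00000031812, chromosome 8, 122317100 to 122325499) had 67.3, 83.5 and 77.4 CPM in the PBS libraries and 93.1, 96.0 and 129 CPM in the TNF libraries. All TNF libraries, the first included, lay above all PBS libraries. Its log2 fold change was 0.48 (SE 0.22, adjusted p 0.423 with edgeR), and it did not pass 5% without TNF replicate 1 (0.58).

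Map1lc3a (ENSMUSG00000027602, chromosome 2, 155118217 to 155119998), which encodes LC3A, had 6.13, 8.94 and 8.38 CPM in the PBS libraries and 7.48, 16.8 and 19.5 CPM in the TNF libraries. TNF replicate 1 again lay inside the PBS range. The log2 fold change was 0.90 (SE 0.37, adjusted p 0.371 with edgeR), and Map1lc3a rose without TNF replicate 1 (1.23, adjusted p 0.00893 with edgeR, against 0.00893 to 0.920 over 13 alternatives). Map1lc3a was the lowest of the 5 ATG8 genes per kb and 0% of its windows are shared, whereas for Map1lc3b 23.9% are shared, mostly with Gm6055, which was at 0.334 to 1.21 CPM.

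**Figure D4:**
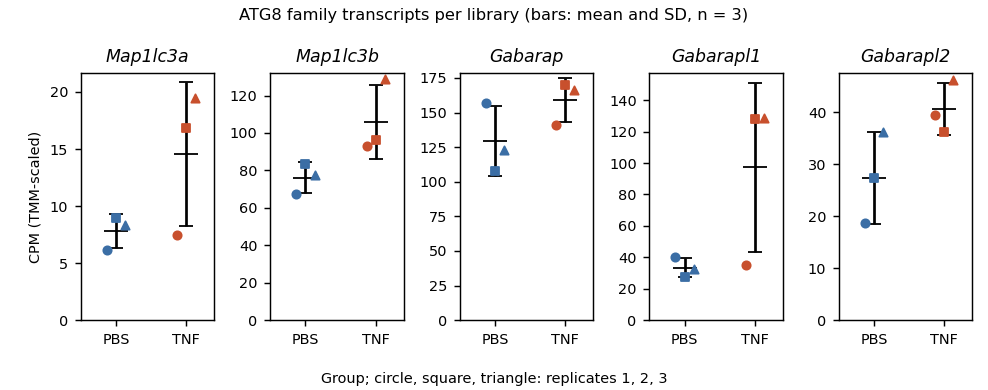
The panels show CPM of the 5 ATG8 genes per library, each on its own linear axis from 0, with circle, square and triangle for replicates 1, 2 and 3 and bars for the mean and SD (n = 3). In TNF, Gabarapl1 has 128 and 129 CPM in replicates 2 and 3 but 35.1 CPM in replicate 1, while Map1lc3b and Gabarapl2 are above PBS in all TNF libraries.

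The makeup of the ATG8 transcript pool was compared as shares per kb within each library, which do not depend on the scaling between libraries. The GABARAP subfamily took 59.5%, 46.9% and 52.9% of the pool in PBS and 51.8%, 59.4% and 53.3% in TNF. The means of 53.1% ± 6.31 and 54.8% ± 4.03 (SD, n = 3 each) differed by less than the spread of the libraries (two-sided exact permutation p 0.8, where 0.1 is the smallest p possible). The difference of 1.77 percentage points turned to -0.65 with exon union lengths. Within the subfamily, Gabarapl1 took 10.7%, 7.66% and 8.72% in PBS and 8.17%, 22.2% and 19.6% in TNF. It took more of the pool in TNF replicates 2 and 3 than in any other library (means 9.03% and 16.6%, exact permutation p 0.3, adjusted 0.625 over the 5 ATG8 genes). Gabarap took 43.4%, 31.0% and 33.8% in PBS and 33.8%, 30.4% and 26.1% in TNF (exact permutation p 0.3, adjusted 0.625). The count ratio of Gabarapl1 to Gabarap was 0.254, 0.255 and 0.267 in PBS and 0.249, 0.752 and 0.774 in TNF, so that this ratio was nearly the same in the first TNF library and all PBS libraries.

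Of the 5 cargo receptors, 3 were higher and 2 lower in TNF (median log2 fold change 0.28). Sqstm1 (ENSMUSG00000015837, chromosome 11, 50089572 to 50107684) encodes p62, a receptor for ubiquitin-tagged proteins. Its level was 214, 150.3 and 138 CPM in the PBS libraries and 152, 371 and 347 CPM in the TNF libraries. TNF replicate 1 lay inside the PBS range and the other TNF libraries far above it. The mean was 167 ± 40.6 CPM in the PBS group and 290.2 ± 120.0 CPM in the TNF group (SD, n = 3 each), with a log2 fold change of 0.79 (SE 0.35, adjusted p 0.411 with edgeR). Sqstm1 rose without TNF replicate 1 (1.12, adjusted p 0.0108 with edgeR, against 0.0108 to 0.920 over 13 alternatives). Of its windows, 24.9% are shared, mostly with Mrnip, which was at 0 to 1.44 CPM.

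Nbr1 (ENSMUSG00000017119, chromosome 11, 101442962 to 101472781), a receptor that works alongside p62 on ubiquitin-tagged cargo, lay in the opposite direction. It had 236, 189.8 and 177 CPM in the PBS libraries and 164, 124 and 128 CPM in the TNF libraries. All TNF libraries lay below all PBS libraries, TNF replicate 1 included. The log2 fold change was -0.53 (SE 0.23, adjusted p 0.401 with edgeR), and it did not pass 5% without TNF replicate 1 (-0.65). The count ratio of Sqstm1 to Nbr1 was 0.907, 0.792 and 0.780 in PBS and 0.928, 3.00 and 2.70 in TNF. Nbr1 was thus the more counted receptor in 4 libraries and Sqstm1 in the other 2.

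Optn (ENSMUSG00000026672, chromosome 2, 5022703 to 5068945) encodes optineurin, a receptor for damaged mitochondria and bacteria. It had 14.0, 19.5 and 14.8 CPM in the PBS libraries and 10.8, 29.6 and 23.9 CPM in the TNF libraries, so that TNF replicate 1 was the lowest library and the other TNF libraries the highest. The log2 fold change was 0.42 (SE 0.35, adjusted p 0.658 with edgeR), and Optn rose without TNF replicate 1 (0.76, adjusted p 0.0486 with edgeR, against 0.0486 to 0.970 over 13 alternatives). Tax1bp1, a receptor for protein aggregates and bacteria, was at 194 ± 20.2 CPM in the PBS group and 235 ± 52.0 CPM in the TNF group, with 175, 263 and 267 CPM in TNF replicates 1 to 3. Calcoco1, a receptor for the endoplasmic reticulum and the Golgi, was at 15.4 ± 5.44 and 12.3 ± 2.67 CPM. Neither passed 5% in any of the 13 alternatives.

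The 9 genes whose groups did not overlap and the 9 genes past 5% without TNF replicate 1 shared 3 genes, Atg13, Atg7 and Becn1. For the other 6 genes of the second set (Atg2a, Wipi1, Map1lc3a, Gabarapl1, Sqstm1 and Optn), TNF replicate 1 lay inside or below the PBS range. The other 6 genes of the first set (Pik3r4, Atg2b, Atg4d, Map1lc3b, Gabarapl2 and Nbr1) had log2 fold changes from -0.53 to 0.57, and none of them passed 5% without that library.

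The genes next to the core machinery were compared through 5 further lists. Autophagosomes are broken down in lysosomes, which are acidified by the V-ATPase, a rotary proton pump. Of 22 genes of the lysosome membrane and V-ATPase, 20 were higher in TNF, with a median log2 fold change of 0.41. With edgeR 0 passed 5%, DESeq2 passed 3 and limma-voom 0, and 8 (36.4%, against 12.3% of all genes) had an unadjusted p under 0.05. In 9 genes (40.9%, against 9.07% of all genes) all TNF libraries lay above all PBS libraries. Without TNF replicate 1, 8 rose and 0 fell (36.4%, against 9.1% and 5.4% of all genes). All 8 genes with an unadjusted p under 0.05 (36.4%) were higher, against 8.25% of all genes and 2 of the 37 autophagy genes in that direction, and the difference between the lists was not tested.

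Atp6v1g1, a subunit of the V-ATPase stalk, had 25.0, 25.4 and 29.1 CPM in the PBS libraries and 41.6, 79.9 and 104 CPM in the TNF libraries (log2 fold change 1.50, SE 0.31, adjusted p 0.270 with edgeR). Scarb2, the lysosomal membrane protein LIMP-2, had 71.1, 57.1 and 58.6 CPM in the PBS libraries and 72.7, 289.5 and 209 CPM in the TNF libraries (log2 fold change 1.61, SE 0.43, adjusted p 0.275 with edgeR). Atp6v0e, a small subunit of the membrane part, had 18.6, 24.2 and 27.8 CPM in the PBS libraries and 33.1, 49.5 and 70.5 CPM in the TNF libraries (log2 fold change 1.12, SE 0.29, adjusted p 0.270 with edgeR). In all of them TNF replicate 1 was the lowest TNF library yet above all PBS libraries. For Scarb2 the margin was narrow (72.7 against 71.1 CPM in PBS replicate 1), so its place was close to that for Gabarapl1 and Sqstm1. The margin was wider for Atp6v1g1 and Atp6v0e. Atp6ap2 and Atp6v0b followed with log2 fold changes of 0.65 and 0.87, and these 5 genes rose without TNF replicate 1.

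**Figure D5:**
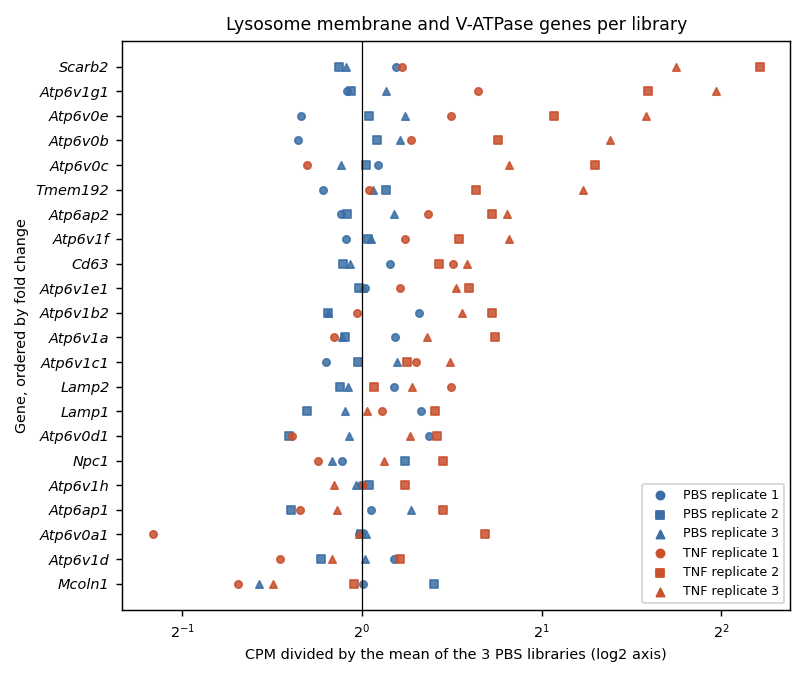
Each row is a gene of the lysosome membrane or V-ATPase, each symbol a library as CPM divided by the mean of the 3 PBS libraries on a log2 axis (PBS blue, TNF red; circle, square and triangle for replicates 1, 2 and 3). The red symbols of Scarb2, Atp6v1g1 and Atp6v0e lie to the right of the blue ones, the red circle of Scarb2 only just. Of the 22 genes, 20 have a log2 fold change above 0.

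Among 23 tested genes of autophagosome formation, transport and fusion, 13 were higher and 10 lower (median log2 fold change 0.02), 0 passed 5% with edgeR, DESeq2 or limma-voom, and 2 (8.70%, against 12.3% of all genes) had an unadjusted p under 0.05. These were the fusion protein genes Vamp8, with a log2 fold change of 0.70 (SE 0.26), and its partner Snap29, with 0.58 (SE 0.23). Other fusion genes of the list went both ways. Ykt6 had a log2 fold change of 0.45 (SE 0.23). Vps39, Vps41 and Stx17, named after their values were seen, had -0.56, -0.10 and 0.04. For Vps39 all TNF libraries lay below the PBS libraries. Without TNF replicate 1, 5 genes rose (21.7%, against 9.1% of all genes), namely Vamp8 (0.93), Snap29 (0.75), the fusion protein gene Ykt6 (0.65), Wdr45b (0.70), which is of the same family as Wipi1, and Rab7 (0.81), a GTPase of late endosomes named here after its value was seen. In that fit 1 fell (4.35%, against 5.4%), Tbc1d5 (-1.21), a regulator of membrane retrieval from endosomes.

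Of 17 tested selective receptors outside the members above, 9 were higher and 8 lower (median 0.04). With edgeR, DESeq2 and limma-voom 0 passed 5%, and 3 (17.6%, against 12.3% of all genes) had an unadjusted p under 0.05. Bnip3l, the mitophagy receptor NIX, had 39.2, 45.4 and 55.1 CPM in the PBS libraries and 61.7, 72.8 and 88.3 CPM in the TNF libraries (log2 fold change 0.67, SE 0.22, adjusted p 0.308 with edgeR). Its groups did not overlap. Phb2, a mitochondrial inner membrane receptor, had 80.9, 77.1 and 68.4 CPM in the PBS libraries and 102, 105 and 99.6 CPM in the TNF libraries (0.44, SE 0.19), likewise without overlap. Bnip3l, Atl3, a receptor for tubular endoplasmic reticulum, and Tollip rose without TNF replicate 1 (0.81, 0.98 and 0.76), which is 17.6% of the list, against 9.1% of all genes.

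The upstream regulators cover mTORC1, the nutrient-sensing kinase that restrains autophagy, the energy-sensing kinase AMPK and the transcription factor TFEB. Of 35 tested genes, 23 were higher and 12 lower (median 0.13), 0 passed 5% with edgeR, DESeq2 or limma-voom, and 5 (14.3%, near the 12.3% of all genes) had an unadjusted p under 0.05. These were Lamtor1 (log2 fold change 0.80), Lamtor3 (0.61), Lamtor5 (0.93), Rragc (0.67) and Fnip2 (0.74), and all 5 rose without TNF replicate 1. The Lamtor and Rrag genes encode the platform that holds mTORC1 on the lysosome, and Fnip2 a partner of it. Other tested genes of the platform, named after their values were seen, went both ways. Lamtor4 had a log2 fold change of 0.35 (SE 0.28). The rest were not higher, with -0.66 for Rragd, whose TNF libraries all lay below the PBS libraries, -0.13 for Rraga and 0.00 for Lamtor2. Without TNF replicate 1, 6 genes of the list rose (17.1%, against 9.1% of all genes) and 1 fell (2.86%, against 5.4%), namely Sesn3 (-0.85), a restrainer of mTORC1 named here after its value was seen.

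Of 14 tested genes from other loci linked to Crohn disease, 5 were higher and 9 lower (median -0.08), 0 passed 5% with edgeR, DESeq2 or limma-voom, and 1 (7.14%, against 12.3% of all genes) had an unadjusted p under 0.05. That gene was Xbp1, a transcription factor of the unfolded protein response that PCs need, at 309, 193 and 211 CPM in the PBS libraries and 165, 131 and 162 CPM in the TNF libraries (log2 fold change -0.64, SE 0.26, adjusted p 0.368 with edgeR). All TNF libraries lay below all PBS libraries. Irgm1, an interferon-inducible GTPase linked to autophagy, had 23.3, 14.1 and 20.5 CPM in the PBS libraries and 15.0, 49.5 and 40.7 CPM in the TNF libraries (0.86, SE 0.40). Irgm1 (1.24) and Fut2 (0.97), which encodes a fucosyltransferase, rose without TNF replicate 1 (14.3% of the list, against 9.1% of all genes).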

How the data were processed

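RNA of sorted PCs from 3 PBS-injected and 3 TNF-injected mice had been sequenced. Per the labels, the authors deposited 1 table of raw counts per Ensembl gene, from single-end reads of an Element AVITI instrument. The submitters' processing notes name FastQC, Trimmomatic 0.39, STAR 2.7.10a, DESeq2 and build mm39. The sources used here give neither the counting tool nor the annotation release, the use of strand or the handling of shared reads.

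Symbols, positions and lengths came from GENCODE for GRCm39 (54749 of 55414 identifiers matched). The counts, 12747484 to 17039511 per library, were tested in R 4.3.3 with edgeR 4.0.16 (filterByExpr with a minimum count of 10 and total of 15, trimmed mean of M-values (TMM) factors, two-sided quasi-likelihood test, Benjamini-Hochberg adjustment over 13026 genes, threshold 0.05). CPM are on TMM-scaled library sizes. The SE of a log2 fold change is its size over the root of the F statistic. Shares were compared with exact permutation tests in scipy 1.17.1. The alternatives tried were RLE (relative log expression) factors, no factors beyond library size, factors computed without genes holding over 1% of the counts, no filter, DESeq2 1.42.0, limma-voom 3.58.1, the replicate number as a block, leaving out each library and, for the shares, other lengths. The edgeR step was tested on simulated data. No libraries of a group were duplicates, since the smallest chi-square per degree of freedom was 27.3. Shared windows are 75-base stretches of the canonical transcript found in another gene's transcripts.

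The genes, lists and alternatives were chosen with earlier results of these data known. Values in all libraries are given for Atg16l1, Lrrk2, Atg5, Atg7, Ulk1, Becn1, Map1lc3b and Sqstm1, and for genes with an unadjusted p under 0.05, no overlap between the groups, or an adjusted p under 0.05 in an alternative. From each further list, up to 5 genes with the smallest unadjusted p were named among those with an unadjusted p under 0.05 or past 5% in an alternative.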

Additional observations from a re-analysis of the deposited data

How the results depend on the processing

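The count of autophagy genes past 5%, 0 with edgeR, stayed 0 under RLE factors, library size alone, scaling without the most abundant genes, limma-voom and the replicate block. It became 3 with no low-count filter (Atg13, Atg7 and Gabarapl1, against 2.94% of all genes) and 2 with DESeq2 (Atg13 and Gabarapl1), and ranged from 0 to 9 when a library was left out, with 9 only without TNF replicate 1. For the lysosome and V-ATPase list the count became 3 with no filter and 3 with DESeq2, and 0 to 8 when a library was left out. Leaving out a library gave 0 to 6 autophagosome genes, 0 to 3 receptors, 0 to 7 upstream regulators and 0 to 2 Crohn-linked genes, with the highest count without TNF replicate 1 each time. The median log2 fold change of the autophagy genes stayed above 0, between 0.08 and 0.29. Library size alone moved the median of all genes to -0.11, so fold changes under it are read against that shift. The difference in the share of the GABARAP subfamily turned to -0.65 with exon union lengths, and ranged from -1.33 (without PBS replicate 2) to 4.97 when a library was left out; it was -0.52 without TNF replicate 2.

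Of the 37 autophagy genes, 27 kept their sign in all 13 alternatives, and 10 turned in at least 1. Under RLE factors, library size alone, scaling without the most abundant genes, no filter and DESeq2, the log2 fold change was -0.014, -0.064, -0.040, -0.030 and -0.015 for Atg101, -0.0075, -0.074, -0.033, -0.025 and -0.010 for Wipi2, and -0.0032, -0.11, -0.031, -0.020 and -0.0059 for Atg16l1. Under library size alone it was -0.041 for Pik3c3 and -0.042 for Atg4b. When a library was left out it ranged from -0.21 to 0.11 for Ulk1, -0.14 to 0.16 for Atg101, -0.10 to 0.37 for Uvrag, -0.56 to 1.33 for Atg9b, -0.079 to 0.12 for Wipi2, -0.11 to 0.24 for Atg16l1, -0.48 to 0.26 for Atg16l2, -0.084 to 0.13 for Atg4b and -0.55 to 0.00093 for Calcoco1. The cause of these changes was not tested.

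The replicate numbers are shared by the groups in the labels, but the mice all differed. Same-numbered libraries did not deviate together (correlations -0.01, -0.07 and 0.03), and differently numbered ones gave similar values (-0.06 to 0.07). With 3 libraries per group this check cannot tell whether same-numbered libraries shared a batch. The numbers were therefore not used as pairs outside the block below. With the replicate number as a block, 0 autophagy genes passed 5%, the median was 0.20, and the values of Atg101 (-0.0044) and Atg16l2 (0.0077) turned. With the block, every count of the 5 further lists was 0. Low counts limit Atg9b, Atg16l2 and Lrrk2.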
